A study of Mus musculus with 12 samples.

Results

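Wnt receptors and beta-catenin effectors were followed as 10 genes in the lymphoid progenitors of the bone marrow (BM). The members were the rows of the gene table whose gene name was Fzd5, Fzd7, Lrp5, Lrp6, Ctnnb1, Axin1, Axin2, Frat1, Tcf7l1 or Tcf7l2, which gave 10 of 32285 rows, and all 10 passed the filter on low counts. The filter kept 13367 genes.

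RNA was sequenced from WT mice of the strain labelled C57BL6/J, sorted from lineage-depleted BM at 1 month (1MO) and 3 months (3MO) of age as Ly6d- CLPs, common lymphoid progenitors that lack the B-lineage marker Ly6d, or as Flk2+ MPPs, multipotent progenitors upstream of them. Each of the 4 groups (1MO CLP, 3MO CLP, 1MO MPP, 3MO MPP) held 3 libraries, numbered as replicates, so that age was compared within each cell type and the cell types within each age. All groups shared the label WT, and no treatment is named. The study describes the CLP libraries as independent experiments, and both cell types were sorted mouse by mouse. The labels do not tie a library to a mouse, and p-values measure the spread between these libraries. The total of the estimated counts lay between 8889083 and 20677785 per library.

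Wnt ligands bind a Frizzled receptor together with an LRP co-receptor on the cell surface. Without ligand, beta-catenin is held by a destruction complex built on Axin, phosphorylated by GSK3 and degraded, whereas with ligand it accumulates and enters the nucleus. There it binds DNA through the TCF/LEF family, whose members repress target genes in its absence. The pathway is known for roles in hematopoietic stem cells and in T-cell development, where Tcf7 and Lef1 are the family members used by T-lineage cells.

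To show the sequence upstream of the genes that the results turn on, the 250 bases before the RefSeq start site are given for Fzd7, the member that differed most firmly between the cell types, and for Axin2, a common target of beta-catenin and the member with the lowest level. They lie on GRCm38.p6 at chr1:59481897-59482146 on the plus strand for Fzd7 and at chr11:108920099-108920348 on the plus strand for Axin2. Capitals mark the TCF core CTTTGT or its reverse complement ACAAAG.
Fzd7: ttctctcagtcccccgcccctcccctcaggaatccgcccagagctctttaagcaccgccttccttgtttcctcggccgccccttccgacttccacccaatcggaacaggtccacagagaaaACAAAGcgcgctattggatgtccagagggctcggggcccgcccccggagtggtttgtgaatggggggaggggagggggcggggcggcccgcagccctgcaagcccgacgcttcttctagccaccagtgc
Axin2: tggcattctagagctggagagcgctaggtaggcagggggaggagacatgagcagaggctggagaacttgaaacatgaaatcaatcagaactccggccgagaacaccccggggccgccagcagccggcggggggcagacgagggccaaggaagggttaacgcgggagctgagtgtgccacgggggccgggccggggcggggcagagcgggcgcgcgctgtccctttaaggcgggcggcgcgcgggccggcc
The core stood 129 to 124 bases before the start of Fzd7 and 28 to 23 bases before that of Tcf7l1, and these letters were not in the Axin2 window. Most of the Tcf7l1 window, its core included, lies within the GENCODE model of the gene, which begins at chr6:72789254 on the minus strand. Of the 10 members, 7 matched an entry by symbol with 9 promoters between them, and 3 of the 9 held CTTTGT on either strand (Fzd7, Tcf7l1 and 1 of the promoters of Tcf7l2), against 16.5% of all 32851 promoters of the same length. The 7-base motif CTTTGAT (reverse complement ATCAAAG) was in 0 of the 9 and in 3.21% of all promoters. Both motifs begin with CTTTG and differ after it, and a match describes the letters only. The GC content of the windows printed was 65.2% for Fzd7 and 69.2% for Axin2, against a median of 52.4% over all promoters.

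The labelled cell types were checked against their markers. Il7r, the receptor chain for the lymphoid cytokine IL-7, ranged from 298.8 to 402 CPM (counts scaled for library size with TMM factors) in the CLP libraries and from 5.24 to 18.5 CPM in the MPP libraries, and Kit, the stem cell factor receptor, from 222 to 377 CPM and from 672 to 797 CPM. Dntt and Rag1, also listed for CLPs, were higher in all CLP libraries, and Cd34, listed for MPPs, in all MPP libraries. Flt3 and Cd27 stood on both lists and overlapped, Flt3 at 1341 to 1524 CPM in CLPs and 1103 to 1363 CPM in MPPs. Cd48, an MPP marker, went the other way at 3MO, at 44.2 to 75.7 CPM in CLPs and 30.3 to 40.5 CPM in MPPs. Ly6a and Ly6d overlapped, with Ly6d RNA at 1.03 to 7.26 CPM in CLPs and at most 2.28 CPM in MPPs. Markers of other cells also moved with the groups. The 8 bone stroma genes summed to 214 to 603 CPM in 1MO CLPs, with all 8 detected, against 4.496 to 7.02 CPM in 3MO CLPs, with Bglap, Dcn and Lum at 0, and to 12.2 to 80.9 and 5.21 to 14.5 CPM in 1MO and 3MO MPPs. The 5 B-lineage genes summed to 56.1 to 81.3 CPM in 1MO CLPs and 23.1 to 38.7 CPM in 3MO CLPs, with Igll1 at 0 in the former, and to at most 4.15 CPM in MPPs. In CLPs Ebf1 made up most of this sum, at 52.9 to 76.3 CPM at 1MO and 20.8 to 38.3 CPM at 3MO. The 5 neutrophil genes, all detected, summed to 27.7 to 31.0 CPM in 1MO CLPs and 32.5 to 101 CPM in 3MO CLPs. The part of these cells in the differences between ages in CLPs was not tested. Library 3 of every group stood apart in the 6 erythroid genes, all detected, which summed there to 124 CPM in 1MO CLPs, 81.5 CPM in 3MO CLPs, 129.9 CPM in 1MO MPPs and 104 CPM in 3MO MPPs, against medians of 18.1, 19.5, 25.4 and 20.9 CPM. In such bulk libraries, fewer cells of a type and less RNA per cell cannot be told apart.

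The 10 genes spanned more than 2 orders of magnitude in level per kilobase of exon, the scale on which different genes can be compared. Ctnnb1, which encodes beta-catenin, had the highest mean over the 12 libraries at 86.1 ± 12.3 CPM per kilobase (SD, n = 12), followed by the scaffold gene Axin1 at 28.3 ± 7.01, the co-receptor genes Lrp5 at 24.4 ± 4.98 and Lrp6 at 15.99 ± 2.30, and Tcf7l2 at 5.10 ± 1.34. Frat1 had a mean of 3.01 ± 0.82, Fzd7 of 2.35 ± 1.18, Fzd5 of 1.20 ± 0.53, Tcf7l1 of 1.11 ± 1.25 and Axin2 of 0.31 ± 0.40 CPM per kilobase. The ranges of neighbours in this order overlapped from Axin1 to Lrp6 and again from Tcf7l2 down to Axin2, while the lowest Ctnnb1 value (57.9) lay above the highest Axin1 value (42.4) and the lowest Lrp6 value (12.2) above the highest Tcf7l2 value (8.33). Per kilobase of the longest transcript in place of all exons, the ranges of Lrp6 and Tcf7l2 overlapped. Ctnnb1, Lrp5, Lrp6 and Axin1 were read from at least 811 counts in every library, whereas Axin2 was read from 1 to 76 counts and Tcf7l1 from 0 to 159. Among the other Frizzled genes, Fzd6 had a mean of 6.73 CPM per kilobase, above the means of both Frizzled members.

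**Figure D1:**
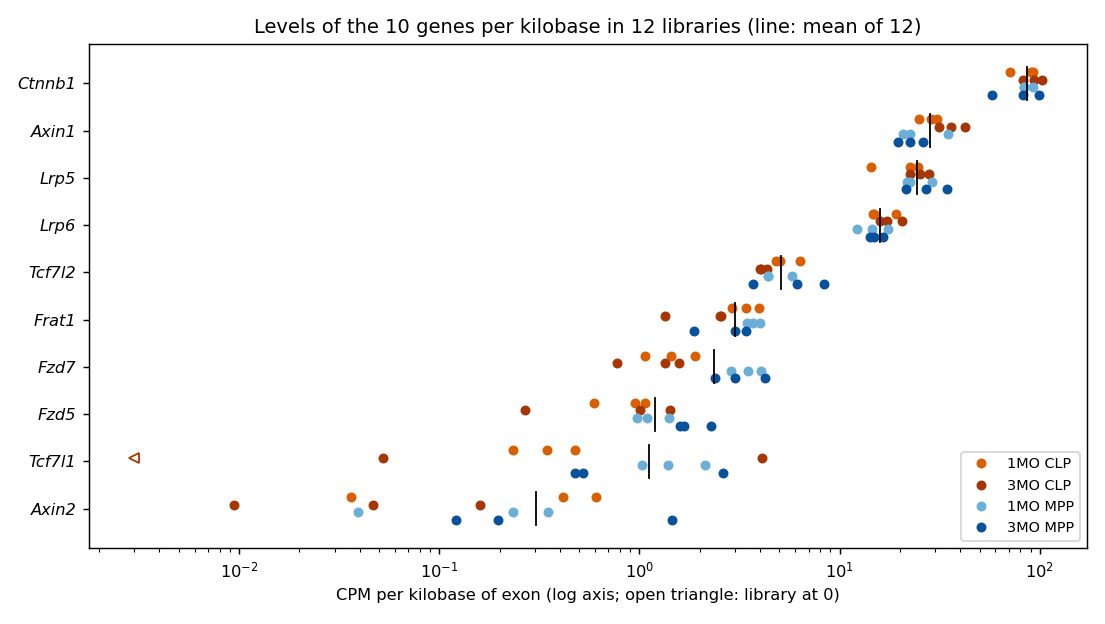
Level of each of the 10 genes in each of the 12 libraries, in CPM per kilobase of exon on a log axis, with points coloured by group and a line at the mean of 12 libraries. Ctnnb1 lies highest at a mean of 86.1 and Axin2 lowest at 0.31, and the open triangle marks the 3MO CLP library in which Tcf7l1 is at 0.

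Values for single genes are given below in CPM for libraries 1, 2 and 3 of a group. The Frizzled receptor gene Fzd7 (chr1:59482424-59486955, GRCm38, plus strand, coding sequence in 1 exon) was at 8.61, 6.52 and 4.82 CPM in 1MO CLPs and at 3.49, 7.14 and 6.09 CPM in 3MO CLPs. In MPPs, Fzd7 reached 12.99, 15.9 and 18.4 CPM at 1MO and 13.6, 19.2 and 10.8 CPM at 3MO. All 6 CLP libraries lay below all 6 MPP libraries, while the ages overlapped within each cell type.

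The other Frizzled member, Fzd5 (chr1:64730558-64737751, minus strand, coding sequence in 1 exon), was at 4.12, 6.59 and 7.39 CPM in 1MO CLPs and at 9.86, 7.00 and 1.85 CPM in 3MO CLPs. In MPPs, Fzd5 stood at 7.58, 6.75 and 9.69 CPM at 1MO and at 15.8, 11.1 and 11.5 CPM at 3MO. The 3MO MPPs were highest and overlapped no other group, and the remaining groups overlapped in the order 1MO MPP, 3MO CLP, 1MO CLP. The gene overlaps Gm38058 on the opposite strand. The study names a directional RNA library kit. Whether the authors' quantification used strand is not given in the sources used here, so reads of the overlapping genes named in this account may not be told apart.

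The LRP co-receptor genes varied little. Lrp5 (chr19:3584828-3686564, minus strand, 23 coding exons) was at 239, 219 and 139 CPM in 1MO CLPs, 245, 273 and 218 CPM in 3MO CLPs, 220, 282 and 212 CPM in 1MO MPPs and 336, 262 and 208 CPM in 3MO MPPs. Lrp6 (chr6:134446476-134566965, minus strand, 23 coding exons) was at 203, 201 and 262 CPM in 1MO CLPs, 217, 235 and 279 CPM in 3MO CLPs, 167, 239 and 198 CPM in 1MO MPPs and 194, 226 and 203 CPM in 3MO MPPs. All neighbouring groups in the order of either gene overlapped, and the highest group mean was 1.35 times the lowest for Lrp5 and 1.21 times for Lrp6.

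Ctnnb1 (chr9:120929216-120960507, plus strand, 14 coding exons), the gene of the effector itself, had the flattest profile. It was at 369, 480 and 472 CPM in 1MO CLPs, 429, 486 and 533 CPM in 3MO CLPs, 434, 433 and 479 CPM in 1MO MPPs and 301, 517 and 430 CPM in 3MO MPPs. The highest group mean was 1.16 times the lowest, which is the smallest such ratio of the 10 genes, and all groups overlapped. Ulk4, 4930593C16Rik and Mir7090 overlap the gene.

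**Figure D2:**
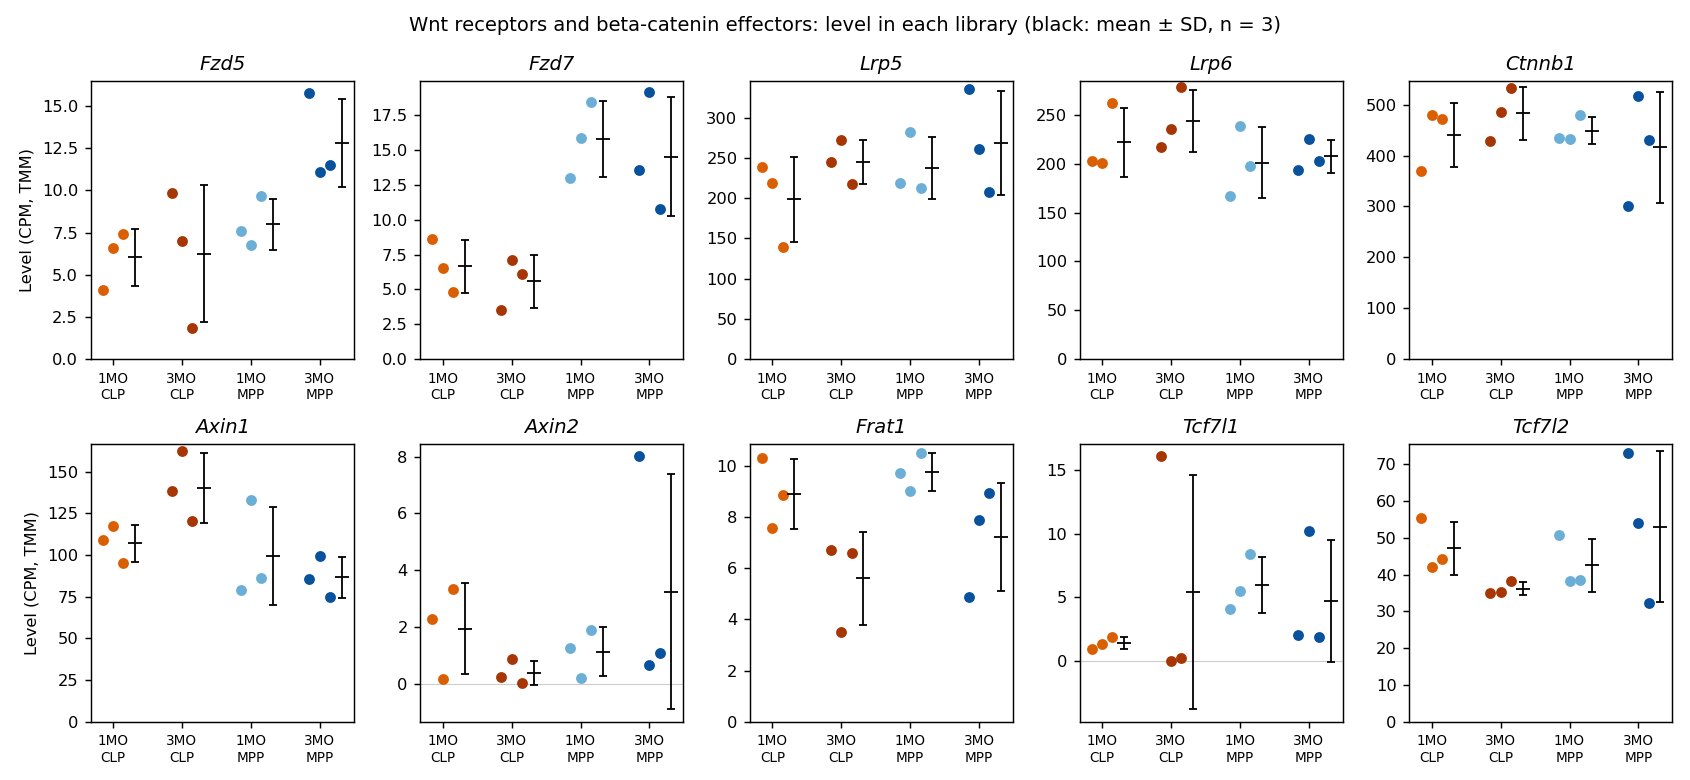
Level of each of the 10 genes in CPM after TMM scaling, with 1 point per library, 3 libraries per group and the mean ± SD in black. In the Fzd7 panel the CLP points (3.49 to 8.61) lie below the MPP points (10.8 to 19.2), and in the Tcf7l1 and Axin2 panels single libraries at 16.1 and 8.01 stand away from their groups.

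Axin1 and Axin2 encode the scaffolds of the destruction complex, and Axin2 is also a common target of beta-catenin. Axin1 (chr17:26138688-26195811, plus strand, 10 coding exons) was at 109, 117 and 95.01 CPM in 1MO CLPs and at 139, 162 and 120 CPM in 3MO CLPs. In MPPs, Axin1 was read at 79.0, 133 and 86.5 CPM at 1MO and at 85.7, 99.5 and 74.7 CPM at 3MO. The 3MO CLPs were the highest group, above all libraries of 1MO CLPs and of 3MO MPPs and overlapping 1MO MPPs through a single library at 133 CPM, and the pseudogene AC140047.1 lies within the gene on the opposite strand.

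Axin2 (chr11:108920349-108950783, plus strand, 10 coding exons) was at 2.30, 0.199 and 3.33 CPM in 1MO CLPs and at 0.257, 0.879 and 0.0517 CPM in 3MO CLPs. In MPPs, Axin2 gave 1.28, 0.216 and 1.91 CPM at 1MO and 8.01, 0.664 and 1.08 CPM at 3MO. All groups overlapped, and the highest value was that of 3MO MPP library 1. The antisense gene Gm11670 overlaps it.

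Frat1, which encodes a GSK3-binding protein that favours beta-catenin stability (chr19:41829970-41832583, plus strand, coding sequence in 1 exon), was at 10.3, 7.57 and 8.87 CPM in 1MO CLPs and at 6.71, 3.51 and 6.58 CPM in 3MO CLPs. In MPPs, Frat1 was counted at 9.70, 9.02 and 10.5 CPM at 1MO and at 4.88, 7.87 and 8.94 CPM at 3MO. In both cell types every 3MO library lay below every 1MO library.

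Tcf7l1 and Tcf7l2 encode DNA-binding partners of beta-catenin, the former known mainly as a repressor. Tcf7l1 (chr6:72626378-72789254, minus strand, 13 coding exons) was at 0.915, 1.36 and 1.86 CPM in 1MO CLPs, 16.1, 0 and 0.205 CPM in 3MO CLPs, 4.05, 5.47 and 8.39 CPM in 1MO MPPs and 2.04, 10.2 and 1.87 CPM in 3MO MPPs. The count of 0 in 3MO CLP library 2 allows a level of up to 0.166 CPM (3 counts of the library, counting error only). Of the 6 CLP libraries, 5 lay below all 6 MPP libraries and 3MO CLP library 1 above them all, and 6 annotated genes overlap Tcf7l1, 3 of them on the opposite strand.

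Tcf7l2 (chr19:55741820-55933654, plus strand, 14 coding exons) was at 55.4, 42.0 and 44.2 CPM in 1MO CLPs and at 35.04, 35.4 and 38.2 CPM in 3MO CLPs. In MPPs, Tcf7l2 came to 50.8, 38.3 and 38.5 CPM at 1MO and to 73.1, 53.9 and 32.2 CPM at 3MO. The 3MO CLPs were the lowest group by mean, below all libraries of 1MO CLPs and of 1MO MPPs, and the 3MO MPPs spread widely around them. Ppnr lies within the gene on the same strand.

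To ask whether these genes changed between 1MO and 3MO in Ly6d- CLPs, the ages were compared with edgeR's quasi-likelihood test, with p-values adjusted over all 13367 genes tested. Axin1, Lrp5, Lrp6, Ctnnb1, Fzd5 and Tcf7l1 had higher estimates at 3MO and Fzd7, Axin2, Frat1 and Tcf7l2 lower ones, and none of the 10 passed an adjusted p of 0.05 in edgeR or in DESeq2, nor an unadjusted p of 0.05 in edgeR. Over all genes, edgeR called 10 (0.0748%) and DESeq2 65 (0.446%), and 5.9% had an unadjusted p under 0.05 in edgeR. The median log2 fold change of the members was 0.09, against -0.01 over all genes tested.

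For 3 of the 10 members the ages did not overlap in CLPs, against 10.6% of all genes tested. Axin1 had an estimate of 0.39 on the log2 scale, higher at 3MO (SE 0.21, 95% CI -0.05 to 0.83, edgeR adjusted p = 0.89). Frat1 was at -0.67 (SE 0.41, 95% CI -1.54 to 0.20, edgeR adjusted p = 0.90) and Tcf7l2 at -0.38 (SE 0.26, 95% CI -0.94 to 0.18, edgeR adjusted p = 0.91). The bone stroma, B-lineage and neutrophil sums given above did not overlap between the same libraries either. Nor did the 4 T-lineage genes, at 81.3 to 105 CPM in 1MO CLPs with Cd3g at 0 and 63.2 to 76.8 CPM in 3MO CLPs with Cd3e and Bcl11b at 0, or the 3 plasmacytoid dendritic genes, all detected, at 887.5 to 1007 and 767 to 876 CPM. Lck made up nearly all of the T-lineage sum, at 81.1 to 105 and 62.7 to 76.8 CPM. Irf8 made up most of the plasmacytoid dendritic sum, at 805 to 897 and 682 to 802 CPM, while Bst2 overlapped between the ages. The part of all these markers in the differences was not tested.

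The intervals were narrow for the abundant genes. For Ctnnb1 the interval of the age difference in CLPs ran from -0.26 to 0.53 on the log2 scale, for Lrp6 from -0.23 to 0.51 and for Lrp5 from -0.16 to 0.76. They were wide for Tcf7l1, at 1.97 (95% CI -0.92 to 4.86), and for Axin2, at -2.16 (95% CI -5.05 to 0.74). The Tcf7l1 estimate rested on 3MO CLP library 1, without which it was -3.57. The Axin2 estimate ranged from -3.33 without 3MO CLP library 2 to -1.52 without 1MO CLP library 3.

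Between 1MO and 3MO in Flk2+ MPPs, no member reached an adjusted p under 0.05 in edgeR or in DESeq2, or an unadjusted p under 0.05 in edgeR. Over all genes edgeR called 3 (0.0224%) and DESeq2 35 (0.258%), and 3.48% had an unadjusted p under 0.05 in edgeR. Fzd5, at a log2 fold change of 0.67 (SE 0.51, 95% CI -0.42 to 1.75, edgeR adjusted p = 1.0), and Frat1, at -0.43 (SE 0.41, 95% CI -1.30 to 0.44, edgeR adjusted p = 1.0), had ages that did not overlap, against 8.61% of all genes. The summed neutrophil markers, 21.3 to 40.6 CPM in 1MO MPPs and 51.5 to 151 CPM in 3MO MPPs with all 5 genes detected, did not overlap either. Nor did the 6 CLP markers, at 1637 to 1787 and 1927 to 2191 CPM, or the 6 MPP markers, at 2820.1 to 2939 and 2969.9 to 3242 CPM, all of them detected. These lists share Flt3 and Cd27, and Flt3 was the largest part of both sums, at 1103 to 1223 CPM at 1MO and 1236 to 1363 CPM at 3MO. Not all markers rose: Cd48 went from 52.4 to 62.4 CPM at 1MO to 30.3 to 40.5 CPM at 3MO, and Rag1 from 10.8 to 13.4 CPM to 4.99 to 9.49 CPM. The part of these markers was not tested. The Axin2 estimate of 1.47 rested on 3MO MPP library 1, without which it was -0.43.

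The age differences in CLPs and in MPPs were compared through the interaction of age and cell type. None of the members passed in edgeR at an adjusted or an unadjusted p of 0.05, or in DESeq2, where over all genes edgeR called 0 and DESeq2 7 (0.0396%) and 3.21% had an unadjusted p under 0.05 in edgeR. Axin1 had the smallest p of the 10, with an age difference 0.59 larger in CLPs than in MPPs on the log2 scale (SE 0.29, 95% CI -0.03 to 1.22, edgeR unadjusted p = 0.062, adjusted p = 1.00). Axin2, read from few counts, came next and differed in the other direction, at -3.63 (SE 1.89, 95% CI -7.65 to 0.39, edgeR unadjusted p = 0.073). So did Tcf7l2, at -0.70 (SE 0.37, 95% CI -1.49 to 0.09, edgeR adjusted p = 1.00). With each library left out in turn, the estimates ran from 0.33 to 0.73 for Axin1, from -4.80 to -1.73 for Axin2 and from -0.96 to -0.40 for Tcf7l2.

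**Figure D3:**
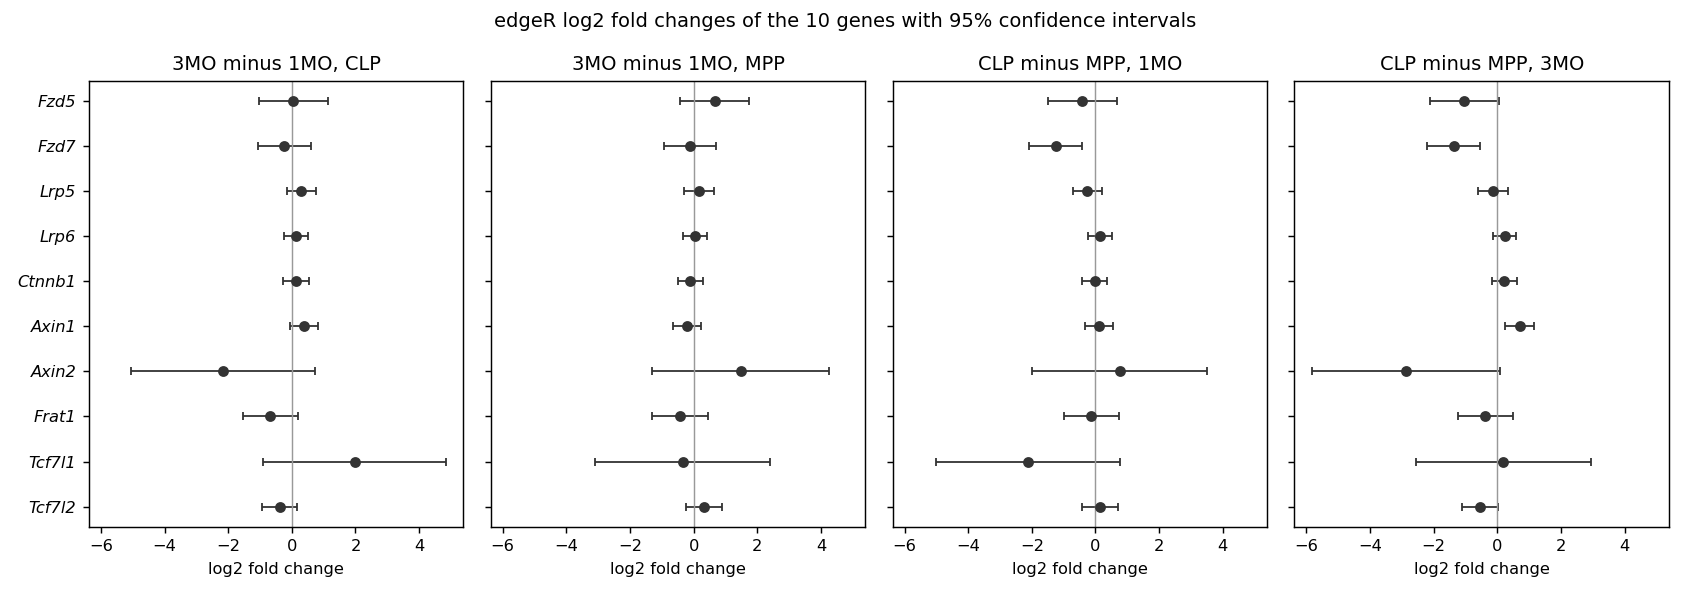
Log2 fold change of each of the 10 genes from edgeR with its 95% confidence interval, for age in each cell type (3MO minus 1MO) and for cell type at each age (CLP minus MPP). The intervals of Fzd7 lie below 0 at both ages (-2.08 to -0.41 and -2.21 to -0.53) and that of Axin1 above 0 at 3MO (0.25 to 1.14), before adjustment over all genes, and those of Axin2 and Tcf7l1 are the widest.

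Fzd7 was the member with the clearest difference between the cell types. At 1MO it was lower in CLPs than in MPPs with a log2 fold change of -1.25 (SE 0.39, 95% CI -2.08 to -0.41), at an edgeR adjusted p of 0.085, and at 3MO with -1.37 (SE 0.39, 95% CI -2.21 to -0.53), at an edgeR adjusted p of 0.052. DESeq2 placed both under 0.05, with adjusted p-values of 0.022 and 0.0088. Over the alternatives, apart from the fits with each library left out in turn, the adjusted p ranged from 0.022 to 0.14 at 1MO and from 0.0088 to 0.16 at 3MO. Averaged over both ages, a comparison added after these values were seen, Fzd7 was 2.48-fold lower in CLPs, a log2 fold change of -1.31 (SE 0.28, 95% CI -1.90 to -0.72, edgeR adjusted p = 0.0044, 6 of 6 CLP libraries below all MPP libraries). In that comparison edgeR called 13.3% of all genes, and 8.77% had cell types that did not overlap.

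No left-out library turned this direction. The summed endothelial markers, with all 4 genes detected in every group, moved with the same contrast, from 4.92 to 15.2 CPM in CLPs and from 16.7 to 33.2 CPM in MPPs. Emcn and Tek carried this sum. Kdr overlapped, and at 1MO Cdh5 went the other way, at 0.95 to 1.80 CPM in CLPs and 0.16 to 0.33 CPM in MPPs. The 3 plasmacytoid dendritic markers, mostly Irf8, moved in the other direction and summed to 767 to 1007 CPM in CLPs and 78.0 to 125 CPM in MPPs. The 4 T-lineage genes summed to 63.2 to 105 CPM in CLPs and 22.9 to 49.8 CPM in MPPs. Lck made up nearly all of this sum, with Cd3e, Cd3g or Bcl11b at 0 in some groups. The B-lineage sums given above did not overlap between the cell types either. The part of these markers in the Fzd7 difference was not tested. By age, Fzd7 differed by -0.24 in CLPs (95% CI -1.07 to 0.59) and by -0.12 in MPPs (95% CI -0.94 to 0.70).

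Across the members, edgeR called none between the cell types at 1MO, where 1 had an unadjusted p under 0.05 and DESeq2 called 1, both times Fzd7. Over all genes edgeR called 719 (5.38%), DESeq2 called 8.85%, and 15.8% had an unadjusted p under 0.05 in edgeR. At 3MO edgeR again called none, 2 had an unadjusted p under 0.05 and DESeq2 called 2, Fzd7 and Axin1, against 812 genes (6.07%) in edgeR, 10% in DESeq2 and 19% at an unadjusted p under 0.05 in edgeR. Ranges that did not overlap were found for Fzd7 and Tcf7l1 at 1MO (24.9% of all genes) and for Fzd7, Fzd5 and Axin1 at 3MO (21.8%), which is 2 and 3 of the 10 members.

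Axin1 at 3MO was the other member near the threshold. It was higher in CLPs with a log2 fold change of 0.70 (SE 0.21, 95% CI 0.25 to 1.14, edgeR adjusted p = 0.063), a 1.62-fold difference. The DESeq2 adjusted p was 0.023. Over the alternatives, apart from the fits with each library left out in turn, the adjusted p ranged from 0.012 to 0.095, lowest with the replicate number as a block. It was 0.038 in edgeR without 1MO MPP library 2. At 1MO the estimate was 0.11 (95% CI -0.34 to 0.55), and over both ages 0.40 (95% CI 0.09 to 0.71, edgeR adjusted p = 0.092, and 0.019 with the replicate number as a block). The interaction term given above is the test of the difference between the ages. It shares the 3MO CLP libraries with this comparison and with that of age in CLPs.

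Fzd5 was at -0.41 (95% CI -1.50 to 0.67) between the cell types at 1MO and at -1.03 (95% CI -2.12 to 0.06, edgeR adjusted p = 0.30) at 3MO. Tcf7l2 was at 0.15 (95% CI -0.41 to 0.71) and -0.55 (95% CI -1.11 to 0.01, edgeR adjusted p = 0.27). For Tcf7l1 the estimates were -2.12 (95% CI -5.01 to 0.77) at 1MO and 0.19 (95% CI -2.57 to 2.95) at 3MO. Without 3MO CLP library 1 the latter became -5.33, at an edgeR adjusted p of 0.038, where the fits without each library in turn gave 0.038 to 0.98.

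For Ctnnb1, Lrp6 and Lrp5 no difference between the cell types was detectable. Over both ages the intervals for CLPs minus MPPs ran from -0.18 to 0.37 for Ctnnb1, from -0.07 to 0.45 for Lrp6 and from -0.52 to 0.13 for Lrp5, so that changes of 1 log2 unit lay outside all 3. Frat1 was at -0.25 (95% CI -0.87 to 0.36) and Axin2 at -1.06 (95% CI -3.03 to 0.91). The Axin2 estimate ranged from -1.65 without 3MO CLP library 2 to -0.11 without 3MO MPP library 1.

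Paralogs were also compared as log2 ratios of CPM within a library, with a prior count of 2 that moves the ratios of genes with few counts. The mean log2 ratio of Fzd7 to Fzd5 was 0.11 ± 1.12 in CLPs and 0.56 ± 0.58 in MPPs (SD, n = 6 each, exact permutation test, two-sided, p = 0.39). That of Lrp6 to Lrp5 was 0.09 ± 0.46 and -0.30 ± 0.27 (exact p = 0.12). The ratio of Axin2, read from as few as 1 count, to Axin1 was -7.21 ± 1.74 and -6.00 ± 1.70 (exact p = 0.25), a difference of -1.21 that was -1.40 with a prior count of 0.5. None of these ratios, ages included, passed 0.05 before adjustment, and tests of 3 against 3 libraries could not go below 0.1. The ratio of Tcf7l2 to Tcf7l1 lay between 2.18 and 5.09 in the MPP libraries and between 1.12 and 6.64 in 5 of the 6 CLP libraries. In 3MO CLP library 2, with Tcf7l1 at 0, the prior count sets it, and no CLP mean or test is read from this ratio.

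The members did not follow one another closely over the 12 libraries. Among the 45 pairs, Pearson's r of log2 CPM ran from -0.65 for Ctnnb1 with Axin2 to 0.61 for Axin2 with Tcf7l2, a description over libraries that share groups and depth. By the same measure over the 12 libraries, the genes most like Fzd7 were Sft2d2 (r = 0.95) and Nfic (r = 0.94), and those most like Axin1 were Socs7 (r = 0.92) and Ermp1 (r = 0.91). Frat1 was most like Rtn4r (r = 0.93) and Vcam1 (r = 0.92), Tcf7l2 most like Zfand2a (r = 0.93) and Katnal1 (r = 0.89), and Fzd5 most like Prr13 (r = 0.91) and Aldoc (r = 0.89). The genes most like Lrp5 were Tcam1 and Wdfy1, Lrp6 Bphl and Rmnd5b, Ctnnb1 Gp5 and Ankrd9, Axin2 Taf6l and Ccdc170, and Tcf7l1 2410131K14Rik and Zdhhc2, with r from 0.83 to 0.93.

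The remaining pathway was read from a list of 92 other Wnt genes, of which 52 were tested. Of 25 ligand and secretion genes 4 were tested and 13 were at 0 in all libraries, and of 13 secreted and surface inhibitors 1 was tested, Kremen1, and 5 were at 0 throughout. In contrast, 12 of 16 receptor genes, 17 of 19 relay genes, 15 of 15 nuclear partners and 3 of 4 common targets were tested. The genes with the highest mean CPM were Wls and Wnt10b among the ligand and secretion genes, Znrf3 and Fzd6 among receptors, Csnk1a1 and Apc among relay genes, Chd8 and Tle3 among nuclear partners and Cd44 and Myc among targets.

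With age neither edgeR nor DESeq2 called any of the 52 in either cell type or in the interaction, and 2 had an unadjusted p under 0.05 in edgeR in each of the 3 comparisons, against 5.9%, 3.48% and 3.21% of all genes. Between the cell types at 1MO, 4 were higher in CLPs (Tcf7, Cd44, Fbxw11 and Tle3) and 1 lower (Wls), 5 of 52 against 5.38% of all genes called by edgeR. At 3MO 2 were higher (Tcf7 and Tle3) and 1 lower (Wls), 3 of 52 against 6.07% of all genes. The median log2 fold change of the list was 0.02 at 1MO and 0.11 at 3MO, against -0.02 and -0.03 over all genes.

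Tcf7, the TCF family member of the T lineage, was at 30.6, 24.1 and 20.8 CPM in 1MO CLPs, 14.2, 13.6 and 16.5 CPM in 3MO CLPs, 0.437, 0.995 and 1.00 CPM in 1MO MPPs and 0, 1.52 and 1.43 CPM in 3MO MPPs. It was higher in CLPs by 4.95 on the log2 scale at 1MO (SE 0.71, edgeR adjusted p = 0.00040) and by 3.85 at 3MO (SE 0.67, edgeR adjusted p = 0.0024), with every CLP library above every MPP library. Its ages did not overlap in CLPs, at -0.77 (SE 0.58, edgeR adjusted p = 0.92). Lef1 was read from at most 24 counts in any library and was at 0 in 5 of 6 MPP libraries, each of which allows up to 0.212 to 0.329 CPM.

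Wls, which carries Wnt ligands to the cell surface, was at 41.2, 38.5 and 30.1 CPM in 1MO CLPs, 33.1, 43.2 and 39.5 CPM in 3MO CLPs, 101, 78.8 and 93.2 CPM in 1MO MPPs and 77.8, 70.2 and 69.0 CPM in 3MO MPPs. Like Fzd7, it was lower in all CLP libraries, with log2 fold changes of -1.32 (SE 0.19, edgeR adjusted p = 0.00054) at 1MO and -0.91 (SE 0.19, edgeR adjusted p = 0.010) at 3MO. Fzd6 ranged from 16.3 to 31.4 CPM in CLPs and from 32.1 to 53.8 CPM in MPPs and was lower in CLPs over both ages at -0.91 (SE 0.22, edgeR adjusted p = 0.010). At each age alone the estimate was as large, -0.89 (95% CI -1.54 to -0.23) at 1MO and -0.94 (95% CI -1.60 to -0.28) at 3MO, with cell types that did not overlap, but missed the threshold (edgeR adjusted p = 0.13 and 0.093).

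Tle3, a co-repressor of TCF factors, was higher in CLPs by 0.89 (SE 0.18, edgeR adjusted p = 0.0078) at 1MO and by 0.76 (SE 0.18, edgeR adjusted p = 0.022) at 3MO on the log2 scale. Fbxw11, a subunit of the ubiquitin ligase that marks beta-catenin for degradation, was higher by 0.77 (SE 0.19, edgeR adjusted p = 0.023) at 1MO and stood at 0.26 (edgeR adjusted p = 0.53) at 3MO. The adhesion receptor gene Cd44 was higher by 0.67 (SE 0.15, edgeR adjusted p = 0.011) at 1MO and stood at 0.49 (edgeR adjusted p = 0.064) at 3MO. With a library left out, the edgeR adjusted p at 1MO rose to at most 0.11 for Fbxw11, 0.076 for Cd44 and 0.052 for Tle3, and at 3MO to 0.088 for Tle3 and 0.052 for Wls, while Tcf7 passed in each of the 12 fits at both ages. Whether the differences of Fbxw11 and Cd44 changed with age was tested only by the interaction, which called neither. The bone stroma sums given above also separated the cell types at 1MO and overlapped at 3MO, and their part in these differences was not tested.

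**Figure D4:**
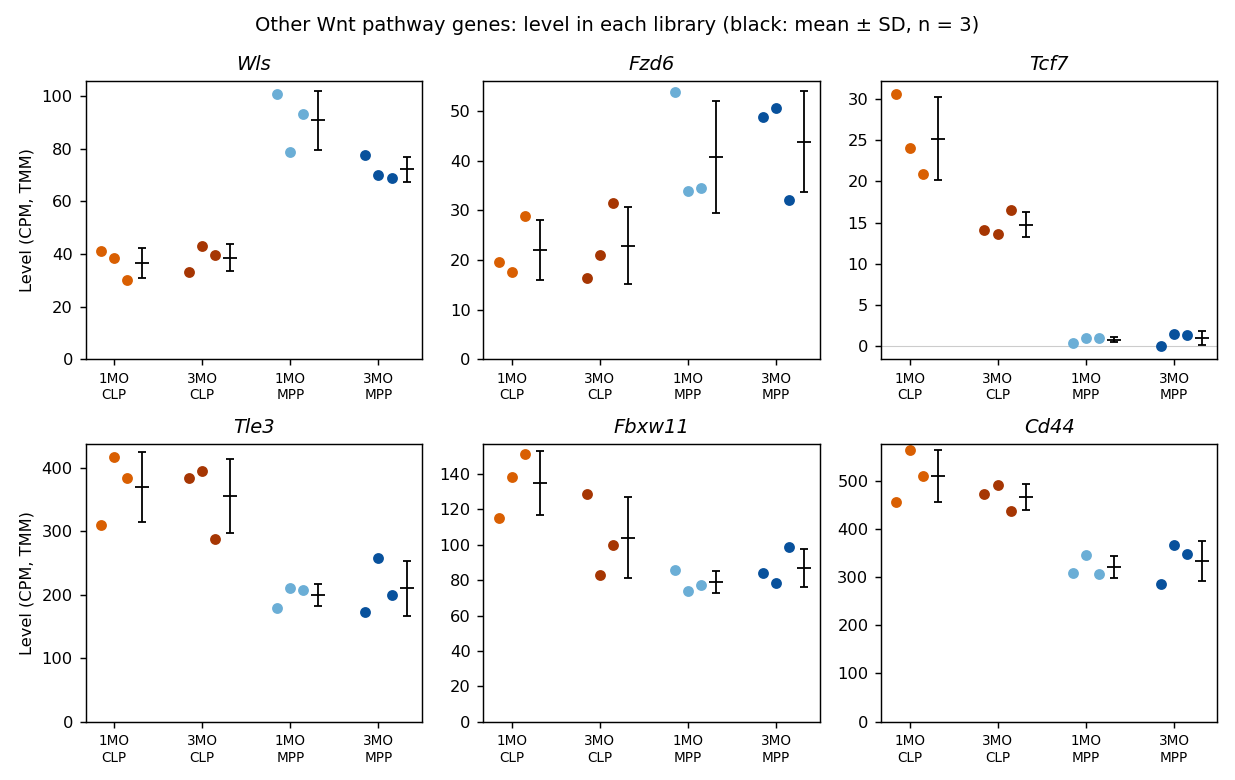
Level of 6 other Wnt pathway genes in CPM after TMM scaling, with 1 point per library, 3 libraries per group and the mean ± SD in black. Wls and Fzd6 lie lower and Tcf7, Tle3 and Cd44 higher in all CLP libraries than in all MPP libraries, with Tcf7 at 13.6 to 30.6 CPM in CLPs and at most 1.52 CPM in MPPs.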

How the data were processed

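The authors used an nf-core pipeline. FastQC, UMI-tools, Trim Galore, STAR and Salmon, and the build mm10, are named in the submitters' processing notes. The values they deposited are gene-level estimated counts that allow for transcript length but not for depth, in 12 columns, each named for its sample. These were rounded before use. The tools were edgeR 4.0.16, DESeq2 1.42.0 and limma 3.58.1, run in R 4.3.3. After filterByExpr and TMM scaling, edgeR's quasi-likelihood test was fitted to 4 groups of 3 libraries, at a Benjamini-Hochberg adjusted p under 0.05 over 13367 genes. Exact permutation tests (scipy 1.17.1, two-sided) used log2 CPM with a prior count of 2, where 3 against 3 libraries cannot go below p = 0.1. Tested on simulated counts of 13367 genes for the age comparison in CLPs, the edgeR step recovered 70 of 100 genes changed 4-fold and 23 of 100 changed 2-fold, with 1 false call.

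Coordinates and exon lengths are those of GENCODE M21 on GRCm38, which held 32158 of the 32285 identifiers, and promoters are those of RefSeq on GRCm38.p6. The members and the lists of pathway and marker genes were chosen with earlier results of these data known, and the lists were written from general knowledge. Genes named outside the members were those past the threshold between groups, Tcf7 and Lef1, up to 2 per class with the highest mean CPM, and the 2 genes most correlated with each member. The comparison over both ages was added after the values were seen. Alternatives were DESeq2's size factors, DESeq2's Wald test, 2 other filters, only the 6 libraries compared, replicate blocks, thinning to the smallest total and each library left out. The limits at a count of 0 cover counting error only.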

Additional observations from a re-analysis of the deposited data

How the results depend on the processing

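No alternative moved a member past the threshold for age or for the interaction. Of 1138 refits of the 60 log2 fold changes of the members, 1088 kept direction and side of the threshold, 36 turned and 15 passed where the reported fit did not, with Tcf7l1 at 3MO without 3MO CLP library 1 (-5.33) among both. Apart from the fits with each library left out in turn, only 4 turned: Fzd5 for age in CLPs with the replicate block (-0.0441), Ctnnb1 between the cell types at 1MO without a filter (0.0021), and Tcf7l1 at 3MO with the replicate block (-0.37) and the block by age and number (-2.52). The cause was not tested. Axin2 and Tcf7l1 had no value under the filter of at least 10 counts in every library, which leaves them out. Under the longest transcript in place of all exons, levels per kilobase moved to 123 for Ctnnb1, 23.3 for Lrp6 and 12.05 for Tcf7l2, and the ranges of the latter pair overlapped.

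Genes called for age in CLPs were 65 with DESeq2, 46 without a filter, 4 with at least 10 counts in every library and 4 with only the 6 libraries compared. For age in MPPs they were 35, 26 and 1 under the first 3 of these, and for the interaction 7 and 6 under the first 2. Between the cell types DESeq2 called 1230 genes at 1MO and 1427 at 3MO, and only the 6 libraries gave 435 at 3MO. Members called at 1MO were 1 with DESeq2. At 3MO they were 2 with DESeq2 (Fzd7, Axin1), 1 without a filter (Axin1), 1 with at least 10 counts (Fzd7), 1 with either block (Axin1) and 1 after thinning (Axin1). Other Wnt pathway genes called at 3MO were 5 with DESeq2 and 1 with only the 6 libraries, where Tle3 (edgeR adjusted p = 0.077) and Wls (0.052) did not pass.

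The sources used here do not say that equal replicate numbers mark the same mouse or experiment, and the numbers were not treated as pairs: the correlation of their deviations ranged from -0.03 to 0.21 and was over 0.1 in 5 of 18 pairs. The sample order in the column names does follow the replicate number, and library 3 of every group shared the high erythroid sums given above. With the replicate block, called genes numbered 11, 3, 0, 915 and 1007 in the 5 comparisons, Axin1 at 3MO was at 0.70 (edgeR adjusted p = 0.012, or 0.024 by age and number), and over both ages 2 members passed under either block, Fzd7 and Axin1.

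With each library left out in turn, Fzd7 over both ages stayed past the threshold in all 12 fits. Called genes ranged from 6 to 10 for age in CLPs (6 without 1MO CLP library 1 or 3MO CLP library 2), 3 to 5 for age in MPPs (5 without 3MO MPP library 2), 0 to 1 for the interaction (1 without 3MO CLP library 3), and 460 to 887 at 1MO, lowest without 1MO MPP library 1. Members called ranged from 0 to 1 at 3MO (Fzd7 without 1MO CLP library 1, Axin1 without 1MO MPP library 2, Tcf7l1 without 3MO CLP library 1) and from 1 to 2 over both ages (adding Axin1 without 1MO MPP library 2 and Tcf7l1 without 3MO CLP library 1). Other Wnt pathway genes called ranged from 2 to 6 at 1MO and from 1 to 3 at 3MO. The following estimates, none called as reported, turned. For age in CLPs these were Fzd5 (-0.44 to 0.48), Tcf7l1 (-3.57 to 2.56, without 3MO CLP library 1) and the ratios of Fzd7 to Fzd5 (-0.86 to 0.70), Lrp6 to Lrp5 (-0.40 to 0.17) and Tcf7l2 to Tcf7l1 (-1.13 to 2.26), the last not read as an estimate, since the prior count sets it where Tcf7l1 is at 0. For age in MPPs they were Fzd7 (-0.37 to 0.0557), Lrp5 (-0.0186 to 0.33), Lrp6 (-0.0755 to 0.18), Ctnnb1 (-0.30 to 0.08), Axin1 (-0.34 to 0.0639), Axin2 (-0.43 to 2.07, without 3MO MPP library 1), Tcf7l1 (-1.63 to 0.039) and the ratio of Lrp6 to Lrp5 (-0.26 to 0.12). For the interaction they were Fzd7 (-0.34 to 0.13), Lrp5 (-0.0746 to 0.32), Lrp6 (-0.0482 to 0.23), Frat1 (-0.45 to 0.0138) and Tcf7l1 (-3.22 to 3.60, without 3MO CLP library 1). Between the cell types they were Ctnnb1 (-0.095 to 0.0857) and Axin1 (-0.0373 to 0.37) at 1MO, Lrp5 (-0.29 to 0.0601) and Tcf7l1 (-5.33 to 1.48) at 3MO, and Ctnnb1 over both ages (-8.3e-05 to 0.19). The ratio of Tcf7l2 to Tcf7l1 between the cell types ranged from 1.22 to 2.58 and is not read for the same reason. Where a group kept 2 libraries, they were assumed to vary like the other groups. Counts of Axin2, at most 76 per library, and of Tcf7l1 limit what can be read for these genes.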
